A study of Homo sapiens with 12 samples.

Results

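The 10 protein genes of the human RNA-cleaving ribonucleoproteins RNase P and RNase MRP (RPP14, RPP21, RPP25, RPP30, RPP38, RPP40, POP1, POP4, POP5 and POP7) were followed in A2780 cells exposed to a cell cycle inhibitor. Members were taken by symbol, current or older, and every probe annotated to a single one of them was kept. This gave 28 probes, 16 on AFFX covering 9 of the genes and 12 on ABI covering all 10, out of 20781 genes measured by such probes on either platform. The genes were selected with their response to the inhibitor already known, so the treated and control values are given as a description and carry no test.

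A2780 is an established human ovarian carcinoma line. The treated group was exposed to 3 µM of the inhibitor, which the sources do not name, for 6 hours, and the control group was left untreated. Only cells still attached were harvested, and the cultures of a condition were pooled into 1 RNA sample before labelling. Aliquots of each pool were hybridised to 3 AFFX arrays (Affymetrix HG-U133 Plus 2.0, short oligonucleotides read by fluorescence) and 3 ABI arrays (Applied Biosystems Human Genome Survey Microarray, long oligonucleotides read by chemiluminescence), which makes 12 arrays in all. The arrays are therefore technical replicates of 1 pool per condition, every error and p-value below measures technical spread only, and both platforms read the same RNA. In such bulk RNA, fewer cells that express a gene and less of its RNA per cell cannot be told apart.

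Array medians lay between 5.37 and 5.47 in log2 units on AFFX and between 1.06 and 1.19 units on ABI, a scale taken as linear from its values. Over all probes, the median change was 0.12 on AFFX and 0.16 on ABI in log2 units. With each array centred on ribosomal protein genes instead, these medians moved to -0.04 and -0.38, and the split of called probes moved to 6307 lower and 229 higher on AFFX, against 4888 and 958 as deposited, and to 7140 lower and 254 higher on ABI, against 3347 and 2553. None of the leukocyte marker probes was called on either platform. Their median, used below as a rough guide to the lower end of the signal, was 4.16 in treated and 3.98 in control arrays on AFFX. On ABI it was -0.93 and -0.98. Single leukocyte probes averaged up to 6.10 (CD3D, AFFX) and 0.99 (CD68, ABI) in treated arrays. Of the epithelial and ovarian carcinoma markers, 0 of 18 AFFX probes were called, and 1 of 12 ABI probes was called lower and 1 higher. They covered 8 genes, which were uneven. On AFFX EPCAM lay at 4.21 in treated and 4.23 in control arrays, and the stronger CDH1 set at 4.45 and 4.17. The strongest CDH2 set lay at 10.36 and 10.11. Of the fibroblast and endothelial markers, 2 of 25 AFFX probes were called lower and 0 of 8 ABI probes were called. Some of these genes gave strong signals in both groups, such as COL3A1 at up to 12.28 in treated and 12.23 in control arrays on AFFX. The sets of a gene could differ, and another COL3A1 set averaged 4.69 in treated and 6.49 in control arrays. The weakest COL1A2 set averaged 4.95 in treated and 6.69 in control arrays, beside 11.26 and 11.23 for the strongest. The part of these markers in the results below was not tested.

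RNase P is an RNA-based enzyme that trims the leader from the front end of precursor tRNAs in the nucleus. RNase MRP is built on a related RNA, shares most of the proteins, and cuts precursor ribosomal RNA within its first internal transcribed spacer. In the human RNase P structure the proteins form 3 groups along the catalytic RNA. POP1 lies with a dimer of POP7 (also called RPP20) and RPP25. A second group holds POP5, RPP14, RPP30 and RPP40, and the other holds RPP21, POP4 (also called RPP29) and RPP38.

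Of the 10 genes, 6 were lower in treated cells on both platforms. RPP38 stood farthest from control (8.30-fold lower on AFFX and 32.0-fold on ABI), followed by RPP25, RPP14, POP7, POP1 and RPP40 in the order of the mean of both platforms' log2 changes. POP4, POP5, RPP21 and RPP30 had no probe called in either direction. A call here means an adjusted p under 0.05 in limma, with Benjamini-Hochberg adjustment over all probes of the platform, and a change of at least 1.5-fold. Of the 16 AFFX probe sets 8 were called lower and 0 higher, where 8.95% of all probe sets were called lower and 1.75% higher. On ABI 6 of 12 probes were called lower and 0 higher, where the shares of all probes were 10.1% and 7.71%. Among the 16185 genes measured on both platforms, with 1 probe chosen per gene, 10.5% were called lower on both and 0.42% higher on both. Because the genes were chosen from this contrast, nothing is read from their counts against those shares. The median log2(Fold Change) was -0.45 over the 16 AFFX probe sets and -0.79 over the 12 ABI probes.

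**Figure D1:**
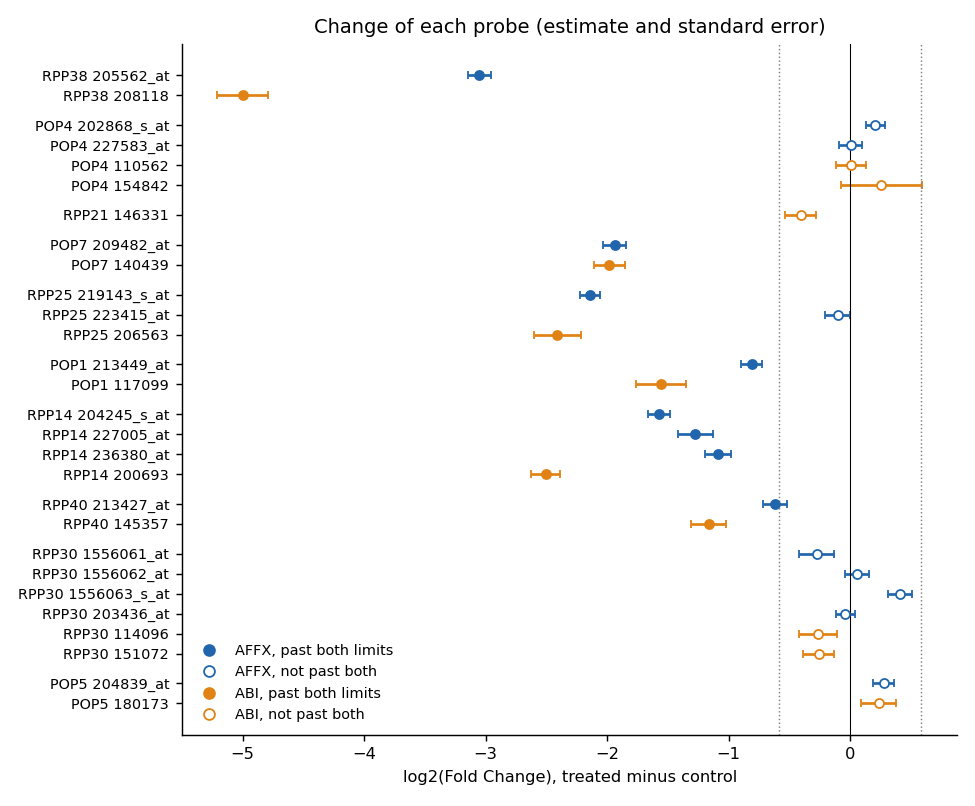
log2(Fold Change) of each probe, treated minus control, on the horizontal axis, with its standard error as a bar (n = 3 arrays per group) and 1 row per probe. Filled points passed both the adjusted p and the 1.5-fold limit (dotted lines), and RPP38 lies farthest to the left at -3.05 on AFFX and -5.00 on ABI.

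RPP38 belongs to a family of proteins that bind kink-turn RNA folds, together with the ribosomal protein L7Ae of archaea. On AFFX its signal was 5.94, 5.76 and 5.78 in the treated arrays, against 9.02, 8.86 and 8.77 in the control arrays (log2 scale). The change was -3.05 (SE 0.0947), and the 9 differences between a treated and a control array ran between -3.26 and -2.83. ABI gave 0.96, 1.14 and 1.65 in treated and 6.23, 6.36 and 6.16 in control arrays, a change of -5.00 (SE 0.209) with single differences between -5.40 and -4.52. In the deposited linear units this was 1.95, 2.21 and 3.13 in treated and 75.21, 82.18 and 71.72 in control arrays. The groups were far apart on both platforms. RPP38 ranked 74 among 54613 AFFX probe sets and 8 among 33096 ABI probes from the most lowered, and 10 among the 16185 shared genes by the mean of both changes. Its direction and call held with the replicate block, the other scalings, the ABI offset, the filter on dim probes and each array left out, between -3.21 and -2.99 on AFFX and between -5.54 and -4.73 on ABI.

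The other members of the RPP38 group did not share its change. POP4, which contacts the catalytic RNA, had log2 signals of 9.59, 9.52 and 9.51 in treated and 9.35, 9.35 and 9.30 in control arrays on AFFX set 202868_s_at, a change of 0.21 (SE 0.0784) under the fold limit. Its other AFFX set changed by 0.00, and its ABI probe 110562 by 0.01, with 5.18, 5.07 and 5.26 in treated and 5.15, 5.10 and 5.24 in control arrays. The remaining ABI probe of POP4, 154842, averaged under the leukocyte guide in control arrays and scattered between -1.60 and -0.36 in treated ones. RPP21, a zinc-binding subunit found in RNase P and not in RNase MRP, had a probe of its own on ABI alone. There it read 4.42, 4.21 and 4.30 in treated and 4.78, 4.62 and 4.77 in control arrays, a change of -0.41 (SE 0.128), or 1.33-fold lower without overlap but not called. An AFFX set shared by RPP21, TRIM39 and their readthrough transcript lay outside the selection and changed by 0.15. In this group 1 of 3 AFFX sets and 1 of 4 ABI probes were called, both of them for RPP38. Over all probes, 8.95% on AFFX and 10.1% on ABI were called lower.

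POP1 and the POP7-RPP25 dimer were lower throughout, with 1 probe set as the exception. POP7, which pairs with RPP25 through the Alba fold, had AFFX signals of 7.83, 7.86 and 7.62 in treated and 9.75, 9.64 and 9.74 in control arrays. Its ABI signals were 3.41, 3.25 and 3.43 in treated and 5.46, 5.26 and 5.33 in control arrays. The changes, -1.94 (SE 0.0914) and -1.98 (SE 0.128), correspond to 3.84-fold and 3.96-fold lower signals and nearly coincide between platforms.

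RPP25, the partner of POP7, read 6.78, 6.78 and 6.65 in treated and 8.94, 8.87 and 8.84 in control arrays on AFFX set 219143_s_at, a change of -2.15 (SE 0.0823). ABI gave 0.76, 0.44 and 1.05 in treated and 3.15, 3.29 and 3.04 in control arrays, a change of -2.41 (SE 0.193), 5.32-fold lower. The second AFFX set of RPP25, 223415_at, read 8.73, 8.40 and 8.65 in treated and 8.75, 8.61 and 8.73 in control arrays, so its groups overlapped and its change was -0.10 (SE 0.101). The sets of RPP25 thus disagreed, and where each lies on the transcript was not used here.

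POP1, the largest protein of the complex, had AFFX signals of 6.67, 6.75 and 6.83 in treated and 7.55, 7.67 and 7.47 in control arrays (-0.81, SE 0.0885, 1.76-fold lower). On ABI it read -0.79, -0.45 and -0.81 in treated and 1.04, 1.04 and 0.54 in control arrays (-1.56, SE 0.203, 2.94-fold lower). The treated ABI signals of POP1 lay just above the leukocyte guide of -0.93. Over these 3 genes the median change was -1.38 on AFFX, with 3 of 4 sets called, and -1.98 on ABI, with 3 of 3 probes called. Of all probes, 8.95% on AFFX and 10.1% on ABI were called lower. The genes were chosen with this contrast known, so the counts describe them and compare no groups of the enzyme.

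**Figure D2:**
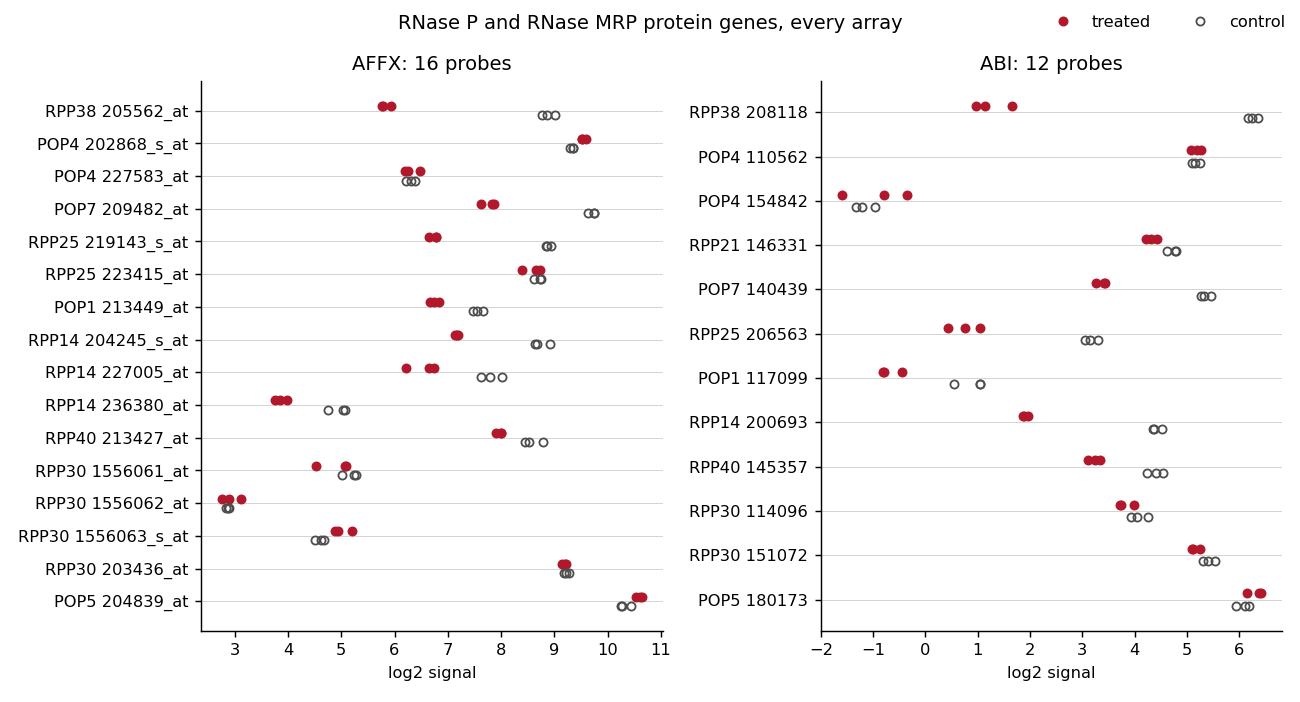
log2 signal of every array (horizontal axis) for the 16 AFFX and 12 ABI probes, 1 row per probe, with filled red points for the 3 treated arrays and open points for the 3 control arrays. The groups are apart and treated is lower for 8 probes on each platform, and on AFFX treated is higher and apart for 3; levels of different probes cannot be compared with each other.

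The group of POP5, RPP14, RPP30 and RPP40 split. RPP14, a small subunit that sits with POP5 and RPP30, was lower on all 4 of its probes. AFFX set 204245_s_at read 7.17, 7.14 and 7.20 in treated and 8.92, 8.64 and 8.68 in control arrays, a change of -1.57 (SE 0.0933). Sets 227005_at and 236380_at changed by -1.27 (SE 0.142) and -1.09 (SE 0.105), with the treated signals of the last set, 3.98, 3.85 and 3.76, under the leukocyte guide. On ABI RPP14 had 1.87, 1.95 and 1.88 in treated and 4.51, 4.34 and 4.37 in control arrays, 5.68-fold lower (SE 0.119 on the log2 scale). The RPP14 transcript also carries the reading frame of HTD2, an enzyme of mitochondrial fatty acid synthesis, and whether the probes of RPP14 could separate the pair was not examined.

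RPP40 showed the smallest of the called changes. Its AFFX signals were 7.90, 7.99 and 7.99 in treated and 8.78, 8.53 and 8.44 in control arrays, 1.54-fold lower (-0.62, SE 0.0990), and without control replicate 1 the change of -0.52 was under the limit. ABI gave 3.33, 3.24 and 3.10 in treated and 4.53, 4.40 and 4.23 in control arrays, 2.24-fold lower (SE 0.142 on the log2 scale). The RPP40 gene overlaps LYRM4-AS1 in the annotation, and which of the genes the probes could also read was not examined.

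RPP30 and POP5, a pair that meets directly in the enzyme, showed no called change. The strongest RPP30 set, 203436_at, read 9.14, 9.20 and 9.21 in treated and 9.27, 9.19 and 9.22 in control arrays, a change of -0.04. Its other AFFX sets changed by -0.28, 0.05 and 0.41, and the last of these, 1556063_s_at, was higher without overlap, with 4.89, 5.20 and 4.94 in treated and 4.62, 4.51 and 4.67 in control arrays. Both ABI probes of RPP30 were slightly lower, by -0.27 and -0.26. The probes of RPP30 thus gave changes of both signs, all under the fold limit.

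POP5 read 10.61, 10.64 and 10.53 in treated and 10.43, 10.27 and 10.26 in control arrays on AFFX, and 6.15, 6.37 and 6.42 in treated and 6.19, 5.93 and 6.11 in control arrays on ABI. Its changes were 0.27 (SE 0.0856) and 0.23 (SE 0.145), with groups apart on AFFX and overlapping on ABI. The positive signs hung on the scaling of ABI: with arrays centred on ribosomal protein genes, POP5 changed by -0.31 and both POP4 probes by -0.53 and -0.29, and RPP21 (-0.95) and both RPP30 probes (-0.81 and -0.80) were called lower there. On AFFX the same centring left POP5 at 0.12 and POP4 at 0.05 and -0.16, none of them called.

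Counted by overlap alone, 8 AFFX sets of the 10 genes were lower without overlap between the groups and 3 were higher, where 17.5% and 34% of all sets were. On ABI the counts were 8 lower and 0 higher, where 17.1% and 23.8% of all probes were. The remaining 5 AFFX sets and 4 ABI probes overlapped. Standard errors of the member probes ran between 0.0784 and 0.145 on AFFX and between 0.119 and 0.336 on ABI.

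**Figure D3:**
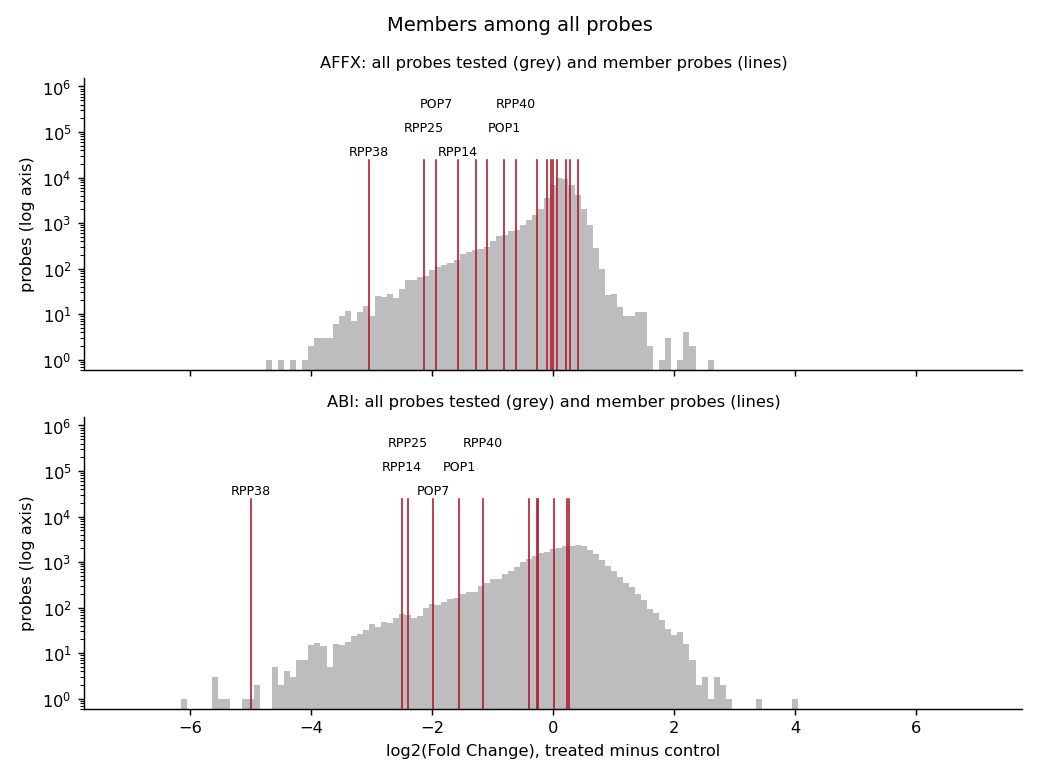
Number of probes (log axis) by log2(Fold Change), treated minus control, in grey for all 54613 AFFX sets and 33096 ABI probes, with a red line for each member probe and names over genes called lower. On both platforms the member lines spread between the centre of the distribution and its left tail, where RPP38 ranks 74 on AFFX and 8 on ABI.

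The promoters of these genes were read to show what stands upstream of genes that moved together and of one that did not. Sequences of the 250 bases before the annotated start came from RefSeq (GRCh38.p14), where 9 of the 10 genes matched, all but POP1. Of these, 4 are shown: RPP38, POP7 and RPP14, which were lower, and POP5, which was not. Capitals mark exact matches, on either strand, to the CCAAT box (CCAAT), the GC box (GGGCGG), the E box (CACGTG), and the cores of the ETS (CCGGAAG) and NRF1 (GCATGCG) motifs. Because GCATGCG overlaps its own reverse complement, each NRF1 match counts on both strands. RPP38 lies at chr10:15097105-15097354 on the plus strand, POP7 at chr7:100705871-100706120 on the plus strand, RPP14 at chr3:58306270-58306519 on the plus strand and POP5 at chr12:120581403-120581652 on the minus strand, each written 5′ to 3′ along its gene.
RPP38: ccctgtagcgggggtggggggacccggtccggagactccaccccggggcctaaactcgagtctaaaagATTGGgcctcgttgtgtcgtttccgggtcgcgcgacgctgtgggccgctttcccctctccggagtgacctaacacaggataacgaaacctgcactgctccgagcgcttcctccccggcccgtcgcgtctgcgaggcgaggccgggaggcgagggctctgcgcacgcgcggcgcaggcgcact
POP7: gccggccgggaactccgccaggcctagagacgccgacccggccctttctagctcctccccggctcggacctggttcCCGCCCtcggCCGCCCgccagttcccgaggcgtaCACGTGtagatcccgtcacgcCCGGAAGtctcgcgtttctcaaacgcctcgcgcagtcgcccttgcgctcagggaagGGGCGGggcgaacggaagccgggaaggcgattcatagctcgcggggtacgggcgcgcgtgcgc
RPP14: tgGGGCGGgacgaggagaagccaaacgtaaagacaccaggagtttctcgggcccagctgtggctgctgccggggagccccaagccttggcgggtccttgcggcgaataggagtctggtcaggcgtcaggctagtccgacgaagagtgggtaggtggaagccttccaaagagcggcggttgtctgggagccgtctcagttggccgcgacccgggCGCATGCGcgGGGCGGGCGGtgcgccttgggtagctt
POP5: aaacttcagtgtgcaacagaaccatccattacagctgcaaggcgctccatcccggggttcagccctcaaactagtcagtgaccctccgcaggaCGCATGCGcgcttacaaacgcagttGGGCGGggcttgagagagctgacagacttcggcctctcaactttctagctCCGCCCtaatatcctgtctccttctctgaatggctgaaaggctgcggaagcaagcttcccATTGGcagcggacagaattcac
RPP38 carried only an inverted CCAAT box, beginning at position -182 from its start, and its window held 68.8% G and C, against a median of 58.0% over all 35116 promoters. In POP7 (71.2% G and C) the E box began at -140 and the ETS core at -119, among 3 GC boxes. RPP14 held an NRF1 core at -36 and 3 GC boxes. POP5 also held an NRF1 core, at -156, with 2 GC boxes and an inverted CCAAT box at -22. Among the motifs searched here, none was shared by the promoters of the lowered genes alone, and POP1 was not read. Among the 9 promoters, the GC box stood in 7, the CCAAT box in 4, the NRF1 core in 3 (POP5, RPP14 and POP4), the YY1 core (ATGGCG) in 3 (RPP25, RPP40 and POP4), and the E box and the ETS core in 1 each. The shares of all promoters with these letters were 42.6%, 32.0%, 3.4%, 6.5%, 6.3% and 8.5% in that order. The TATA box (TATAAA) and the CRE core (TGACGT) were found in 0 of the 9 windows, where 10.7% and 7.1% of all promoters hold them. Such matches describe letters in a window and show no binding.

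RPP38 shares its upstream region with RPP38-DT, a divergent transcript whose start lies 36 bases away on the opposite strand. The ABI probe of RPP38-DT read -1.94, -1.89 and -1.89 in treated and -3.32, -2.94 and -2.47 in control arrays. All of these signals lay under the leukocyte guide, so the difference of 1.01 concerns signals at the lower end of the scale.

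The genes with fitted changes nearest to those of RPP38, by distance over both log2(Fold Change) values among 16185 genes, were FADD, RGS1 and ZNF627. FADD, the adaptor of death receptors, changed by -2.91 on AFFX and -5.10 on ABI (distance 0.17). RGS1, a regulator of G protein signalling, changed by -3.38 and -5.38 (distance 0.50), and the zinc finger gene ZNF627 by -3.56 and -4.62 (distance 0.63). The ABI means of RGS1 and ZNF627 in treated arrays, -1.79 and -1.47, were under the leukocyte guide, while that of RPP38 was 1.25. The ABI changes of RGS1 and ZNF627, and with them their distances and order, are therefore not firmly determined. FADD had treated means of -0.03 on ABI and 5.67 on AFFX, above the guide. Both lay under the highest leukocyte probes, at 0.99 (CD68) and 6.10 (CD3D), so the FADD changes are not firm either.

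The RNA subunits and a paralogue complete the complex. RPPH1, the catalytic RNA of RNase P, was measured by AFFX only. Its chosen set read 6.10, 6.12 and 6.17 in treated and 5.61, 5.57 and 5.70 in control arrays. The change was 0.50 (SE 0.0807, limma adjusted p = 7.37e-04) and stayed under 1.5-fold. Whether this set reads the mature RNA was not examined. RMRP, the RNA of RNase MRP, had no probe of its own here. RPP25L, the close paralogue of RPP25, fell on AFFX (-1.06, SE 0.0874, limma adjusted p = 4.26e-06), with 7.83, 7.92 and 7.77 in treated and 8.79, 8.97 and 8.93 in control arrays. On ABI its change was -2.17 (SE 0.538, limma adjusted p = 0.0419), and treated replicate 3 stood apart at -0.79 beside 1.16 and 1.01. The ABI call of RPP25L was lost without treated replicate 1 or 2 or without any of the control replicates, and with quantile normalization.

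Other enzymes of tRNA and precursor rRNA processing were examined as 80 genes in 6 lists, RPPH1, RMRP and RPP25L included, with 1 probe per gene. The lists were chosen with earlier results of these data known, so nothing is read from their counts against the shares of all genes. On AFFX 18 of 75 measured genes (24%) were called lower and 1 higher, where 14.2% and 2.49% of all genes were. On ABI 21 of 67 (31.3%) were called lower and 3 higher, where 14.8% and 6.31% of all genes were. The ABI count was 10 without control replicate 2, 12 without control replicate 3, and 38 with arrays centred on ribosomal protein genes. Median changes over the lists were -0.08 on AFFX and -0.24 on ABI, beside 0.16 and 0.09 over all genes. Both platforms measured 67 of the genes. Of these, 13 were called lower on both and 1 higher on both, where 10.5% and 0.42% of all genes measured on both were. The genes named below from the longer lists were picked because both platforms called them alike. Their adjusted p-values and their like direction on both platforms are therefore a description and carry no test.

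Mitochondria cut the same end of tRNA precursors with an enzyme made of protein alone, and 1 of its 3 genes fell on both platforms. TRMT10C, its methyltransferase subunit, had AFFX signals of 6.83, 6.84 and 6.69 in treated and 9.42, 9.32 and 9.29 in control arrays, a change of -2.55 (SE 0.0852, limma adjusted p = 9.39e-09). On ABI it read 2.89, 2.69 and 2.69 in treated and 5.59, 5.58 and 5.46 in control arrays, a change of -2.79 (SE 0.128, limma adjusted p = 4.95e-04). PRORP, the nuclease itself, changed by 0.26 on AFFX with no call, and its ABI means of -1.76 in treated and -1.33 in control arrays were both under the leukocyte guide. HSD17B10, the dehydrogenase that completes the enzyme, changed by 0.43 on AFFX and 0.51 on ABI, with no call.

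At the opposite end of the tRNA, ELAC1, a tRNase Z, fell on AFFX (log2 change -1.26, limma adjusted p = 2.86e-05) and on ABI (-1.72, limma adjusted p = 0.0014). ELAC2, the tRNase Z that removes the trailer, changed by 0.15 on AFFX and -0.10 on ABI with no call. TRNT1, which adds the CCA end, fell on AFFX (-0.86, limma adjusted p = 2.91e-04), and its ABI change was -0.20 (limma adjusted p = 0.486). With arrays centred on ribosomal protein genes, ELAC2 (-0.64) and TRNT1 (-0.74) were both called lower on ABI. SSB, the La protein that shields new tails of RNA polymerase III transcripts, changed by 0.47 on AFFX, under the fold limit, and rose on ABI (0.64, limma adjusted p = 0.0375). That ABI call was lost when any 1 of the 6 arrays was left out, and with arrays centred on ribosomal protein genes (0.10) or quantile normalization (0.21).

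Among tRNA splicing genes, 2 of 10 were called lower and 1 higher on AFFX, and 1 lower and 1 higher of 9 on ABI. The shares of all genes were 14.2% lower and 2.49% higher on AFFX, and 14.8% and 6.31% on ABI. CLP1, an RNA kinase bound to the splicing endonuclease, fell on AFFX (-1.94, limma adjusted p = 5.58e-08). Its ABI change was -3.22 (SE 0.627, limma adjusted p = 0.0218), with treated arrays at 0.34, -2.12 and -0.34, and the call was lost without treated replicate 3 or any control replicate. ZBTB8OS, the archease that helps the tRNA ligase, rose on AFFX (0.80, limma adjusted p = 3.82e-05) and on ABI (0.76, limma adjusted p = 0.0478), the ABI call being lost when any 1 array was left out and with arrays centred on ribosomal protein genes (0.22).

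Genes of tRNA base modification were the longest list, with 9 of 46 called lower and 0 higher on AFFX, 12 of 41 lower and 1 higher on ABI, and 7 lower on both. TRMT5, which methylates the base beside the anticodon, fell on AFFX (-2.15, limma adjusted p = 3.16e-08) and on ABI (-3.23, limma adjusted p = 5.97e-04). The treated ABI mean of TRMT5, 0.42, lay under the highest leukocyte probe (0.99). The pseudouridine synthase PUS3 fell as well (-1.63 on AFFX and -1.81 on ABI), as did QTRT2, a subunit of the enzyme that inserts queuine (-1.55 and -1.71). GTPBP3, which modifies mitochondrial tRNAs, fell less far (-0.99 and -0.80). The limma adjusted p of PUS3, QTRT2 and GTPBP3 was 3.06e-07, 3.29e-06 and 1.15e-04 on AFFX, and 0.0228, 0.00147 and 0.0127 on ABI. On ABI the PUS3 call was lost without treated replicate 1 or 3 or control replicate 2 or 3, and that of GTPBP3 without treated replicate 2 or control replicate 3.

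Of the 10 nucleases and related factors of precursor rRNA cleavage, which act beside RNase MRP, 3 were called lower on AFFX and 5 of 9 on ABI, with 0 higher on either and 2 lower on both. The shares of all genes called lower were again 14.2% on AFFX, 14.8% on ABI and 10.5% on both, and nothing is read from the counts against them. UTP23, a factor of the small subunit processome, fell on AFFX (-1.44, limma adjusted p = 6.55e-07) and on ABI (-1.58, limma adjusted p = 0.0012). NOB1, the nuclease that makes the final end of small subunit rRNA, fell on AFFX (-1.26, limma adjusted p = 6.05e-07) and on ABI (-1.36, limma adjusted p = 0.00244).

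**Figure D4:**
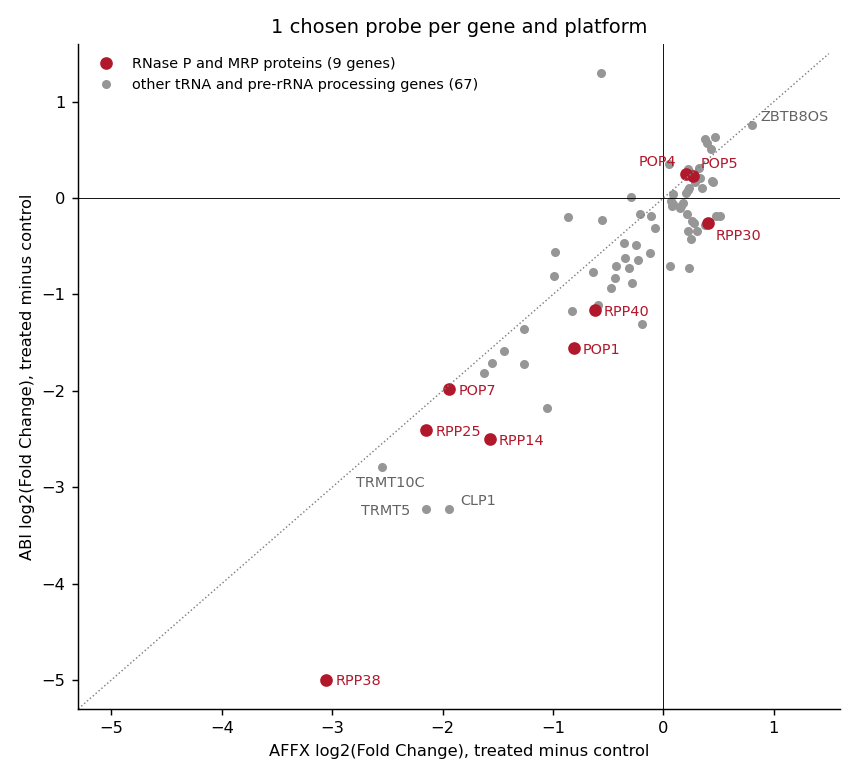
log2(Fold Change), treated minus control, on AFFX (horizontal axis) and ABI (vertical axis) for 9 RNase P and RNase MRP protein genes in red and 67 other processing genes in grey, with 1 probe per gene and platform. The dotted line marks equal change, and RPP38 lies at the lower left, at -3.05 and -5.00.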

How the data were processed

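On AFFX the authors deposited log2 signals, made from probe set intensities with RMA (version not given in the sources used here) and quantile normalization. For ABI the deposited values are intensities, which the authors had put through a global median normalization. They come without detection flags, on a scale the sources do not name, and were taken as linear from their range (all above 0, array medians near 1). These were turned to log2 here. The 62 AFFX control sets were left out. Gene names came from the platform annotation: 41091 AFFX sets and 21089 ABI probes stand for 1 gene, 1801 and 563 for several, and 11721 and 11444 for none, and only the first kind named a gene.

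Each platform was fitted on its own in limma 3.58.1 (R 4.3.3), 3 treated against 3 control arrays, unpaired. A call needed an adjusted p under 0.05 over all probes and a change of at least 1.5-fold. For counts of genes, each gene was represented by its probe of smallest p in a t-test with equal variances, following the methods of the study, which favours larger changes. The script was tested on simulated data. The 3 arrays per group, all of 1 pool, limit the precision.

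All probes of the members are given. From each processing list the text names up to 4 genes called alike on both platforms, by the size of the AFFX change, and all genes of lists of up to 4. The members and lists were chosen with earlier results of these data known. Alternatives were other scalings, a block for the replicate number, an offset of 0.5 before log2, a filter on dim probes, other fold limits, the methods' t-test, another choice of probe, and each array left out. The range of the 9 single differences was added after seeing the data.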

Additional observations from a re-analysis of the deposited data

Results flagged for a closer look

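For RPP30, 1 AFFX set and 1 ABI probe changed in opposite directions, each with every treated array on the far side of every control array. AFFX set 1556063_s_at changed by 0.41 and ABI probe 151072 by -0.26, treated minus control. The difference between them was not tested, and the other 4 RPP30 probes overlapped between the groups. Of these, the AFFX sets changed by -0.04 (203436_at, the strongest), -0.28 and 0.05, and the ABI probe by -0.27. Among all probes, 34% of AFFX sets were higher without overlap and 17.1% of ABI probes were lower without overlap.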

How the results depend on the processing

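The count of 8 member probe sets lower on AFFX became 5 with 1 probe per gene (highest mean). That choice leaves fewer sets, and for RPP25 it takes set 223415_at (-0.10), so RPP25 is then not called on AFFX. The count lay between 7 and 8 with single arrays left out. The count of 0 higher became 2 with no fold limit. On ABI the 6 lower probes stayed 6 with any array left out and reached 9 when centred on ribosomal protein genes. The AFFX median of -0.45 moved to -0.61 with that centring, and to -0.62 with the filter on dim probes or 1 probe per gene (leave-one-out range -0.52 to -0.38). The ABI median of -0.79 moved to -1.33, -0.61, -1.16 and -1.36 with that centring, quantile normalization, the filter and 1 probe per gene (leave-one-out range -0.84 to -0.74). The 18 processing genes lower on AFFX became 32 with no fold limit and 11 with a 2-fold limit (leave-one-out range 17 to 19). The 21 on ABI became 38 with the centring and 12 with a 2-fold limit (leave-one-out range 10 to 16). The sign turned for HSD17B10 on ABI (-0.03) with the centring, and for ELAC2 (0.15) and TRNT1 (0.03) on ABI with quantile normalization. ELAC2 on AFFX came to 0.00 with the centring. Over all probes, single arrays left out gave 4698 to 5170 lower and 770 to 1501 higher on AFFX, and 2227 to 2761 and 737 to 1376 on ABI. The same counts were 8316 and 12746 with no fold limit and 2526 and 80 with a 2-fold limit on AFFX, 539 higher with median centring there, and 871 higher with a 2-fold limit on ABI. The cause was not tested.

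Replicate numbers did not pair the arrays. Deviations of same-numbered arrays correlated at 0.07, 0.00 and 0.33 on AFFX and 0.03, -0.01 and 0.07 on ABI, and AFFX treated replicate 2 correlated better with control replicate 1 (0.32) than with its own number. The pair numbered 3 had the highest value on each platform. With the replicate number as a block, the processing genes lower on ABI came to 7 (over all ABI probes, 1889 lower and 347 higher), the ABI calls of RPP25L, SSB, CLP1, ZBTB8OS, PUS3 and GTPBP3 were lost, and the member counts stayed at 8 and 6. The block also leaves fewer residual degrees of freedom, and why the calls were lost was not tested.

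The 3 arrays of 1 pool leave culture-to-culture spread unmeasured. Signals near the leukocyte guide (POP1 treated on ABI, POP4 probe 154842, RPP14 set 236380_at treated, RPP30 set 1556062_at, PRORP on ABI and CLP1 treated on ABI) are the least firm. Among others, the treated mean of RPP38 on AFFX (5.83) lay under the highest leukocyte probe there (6.10). On ABI the treated means of RPP25 (0.75), RPP25L (0.46) and TRMT5 (0.42) lay under the highest leukocyte probe (0.99).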
